A study of Mus musculus with 12 samples.

Results

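The genes described here drive the cell cycle and DNA replication: the MCM helicase and its loading factors, DNA polymerases and their partners, cyclins and cyclin-dependent kinases (CDKs), CDK inhibitors, the Rb-E2F switch, and the kinases and checkpoint proteins of mitosis. A probe set was taken as a member where the platform's probe table gave it 1 gene symbol and that symbol was one of 49 listed genes. This gave 63 of 12488 probe sets on the array, for 46 of the 8252 genes that have a probe set of 1 symbol. No probe set carried the single symbol of Ccnb1, Cdc25b or Bub1b, and these genes were not measured here.

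Most hepatocytes of an adult liver rest outside the cell cycle and can re-enter it after injury or loss of tissue. In the accepted account of liver regeneration, cytokines such as interleukin-6 (IL-6) first prime hepatocytes by STAT3 signalling, growth factors then carry them through G1 with cyclin D1 as a main step, and E2F releases the genes of DNA synthesis, followed by those of mitosis. DNA synthesis after partial hepatectomy begins many hours after the priming step, so a sample taken early would hold at most the first part of this sequence. The question put to the data was whether IL-6 given to a resting liver was followed by higher RNA of these genes.

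Affymetrix mouse arrays, 12 in all, had been hybridised with total RNA of whole liver taken 4 h after mice were injected into the peritoneum, and they form 6 groups of 2. Control mice were albumin-cre(-) Socs3(w/fl) and received phosphate-buffered saline (PBS) or IL-6. Socs3-deleted mice were albumin-cre(+) Socs3(-/fl) and received the same 2 injections; SOCS3 is the feedback inhibitor of IL-6 receptor signalling. Ifng-null mice lacked interferon-gamma (IFN-γ) and received PBS or IFN-γ. Control and Socs3-deleted mice thus both carried a floxed Socs3 allele, and the albumin promoter drives Cre in hepatocytes, so other liver cells of Socs3-deleted mice keep that allele. The labels give neither the age of the mice nor whether the 2 replicates of a group were separate animals, so p-values measure the spread between these samples, which may be technical.

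The median deposited intensity per array lay between 80.62 and 85.65, and the log2 values of the 2 arrays of a group correlated at 0.987 to 0.993. Hepatocyte markers were present on every array, with a summed intensity of 9 probe sets from 44711 to 56996. The summed intensity of 7 probe sets of pancreatic acinar enzymes was 7623 on the second array of control mice given PBS and 17300 on the second array of Socs3-deleted mice given PBS, against 1047 to 1391 on the other 10 arrays. The sum of 13 probe sets of red cells and blood precursors, of which only the precursors divide, ran from 2616 to 9208. Of that spread, 1 haemoglobin probe set (Hba-a1, 294 to 6389) made the most. The other 12 summed to 2322 to 2885. The 2 arrays with high pancreatic sums are PBS arrays of the IL-6 comparisons, so the member counts, the medians and the changes that rest most on them are also given without both. In whole-liver RNA, fewer cells of a type and less RNA per cell cannot be told apart.

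The letters of E2F sites and CCAAT boxes stood in a larger share of the promoters of these genes than of all promoters. RefSeq promoter windows (assembly GRCm38.p6, 250 bases before to 50 after the start) were held for 39 of the 49 genes, as 44 windows. On either strand, 13 of the 44 windows (29.5%) held at least 1 of 4 forms of the E2F site, TTTCCCGC, TTTGGCGC, TTTCGCGC or TTTGCCGC, against 2.26% of all 32851 windows. The CCAAT box, bound by NF-Y, stood in 30 windows (68.2%, against 37.4% of all), and TTTGAA, the core of the cell cycle homology region (CHR) of mitotic genes, in 11 (25%, against 17.9%). TTCNNNGAA, the letters of a STAT site, stood in 3 windows (6.82%, against 8.3% of all), those of Cdc45, Lig1 and Mcm5. These are matches of letters and not sites shown to be bound.

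The 250 bases before the start are printed for 3 genes named in the results below. These are Mcm10, the member that passed a test, and Cdk1 and Top2a, whose arrays separated by injection in both genotypes. Ccng1 and 1 Plk1 probe set (161292_f_at) separated too and are not printed. The Mcm10 stretch is chr2:5012792-5013041, that of Cdk1 is chr10:69352913-69353162 and that of Top2a is chr11:99024190-99024439, all on the minus strand and written 5′ to 3′ in the direction of the gene. Capitals mark the matches: CCAAT or its reverse complement ATTGG, the E2F letters TTTCGCGC, and TTTGAA or its reverse complement TTCAAA.
Mcm10: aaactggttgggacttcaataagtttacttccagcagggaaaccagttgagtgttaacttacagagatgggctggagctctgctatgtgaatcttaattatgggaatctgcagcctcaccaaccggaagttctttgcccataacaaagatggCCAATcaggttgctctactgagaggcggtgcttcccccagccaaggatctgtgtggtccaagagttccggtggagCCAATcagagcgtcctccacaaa
Cdk1: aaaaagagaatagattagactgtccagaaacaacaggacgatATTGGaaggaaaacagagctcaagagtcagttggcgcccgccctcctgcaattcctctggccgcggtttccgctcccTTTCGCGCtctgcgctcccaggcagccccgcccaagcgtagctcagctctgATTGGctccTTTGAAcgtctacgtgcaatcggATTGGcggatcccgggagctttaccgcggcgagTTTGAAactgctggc
Top2a: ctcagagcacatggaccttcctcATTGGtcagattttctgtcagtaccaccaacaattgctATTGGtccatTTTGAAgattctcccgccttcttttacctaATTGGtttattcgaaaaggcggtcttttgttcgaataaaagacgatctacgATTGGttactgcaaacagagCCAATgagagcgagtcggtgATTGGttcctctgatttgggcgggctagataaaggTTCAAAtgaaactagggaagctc
The Mcm10 stretch held 2 CCAAT matches and none of the 4 E2F forms. The Cdk1 stretch held 1 E2F match, 3 CCAAT matches and 2 CHR matches, and the Top2a stretch 6 CCAAT and 2 CHR matches.

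Many of these probe sets lay near background. Background was set as the 25th percentile of all deposited intensities, 33.01, which served as a floor: lower values were raised to it before log2 was taken. Of the 63 member probe sets, 20 (31.7%) were at or under the floor on all 12 arrays, 3 were above it on some arrays and 40 were above it on all 12; over all non-control probe sets 21.1% were at the floor throughout. For 12 genes every probe set was at the floor on every array: Aurka, Bub1, Ccne2, Cdkn1c, Chek1, Mad2l1, Mcm6, Myc, Orc1, Pola1, Prim1 and Rb1. They include Myc, an early growth gene of the regenerating liver, which read 9.09 to 14.4, and Ccne2, a cyclin of S phase entry, at 7.15 to 9.69. A further 5 genes (Cdc25a, Cdk2, Cdkn1b, Mcm3 and Mki67) had 1 probe set at the floor throughout and another above it on all arrays, so that their probe sets disagree on whether the gene was detected. Mki67, the standard marker of dividing cells, read 10.1 to 13.4 with one probe set and 41.6 to 65.4 with the other.

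**Figure D1:**
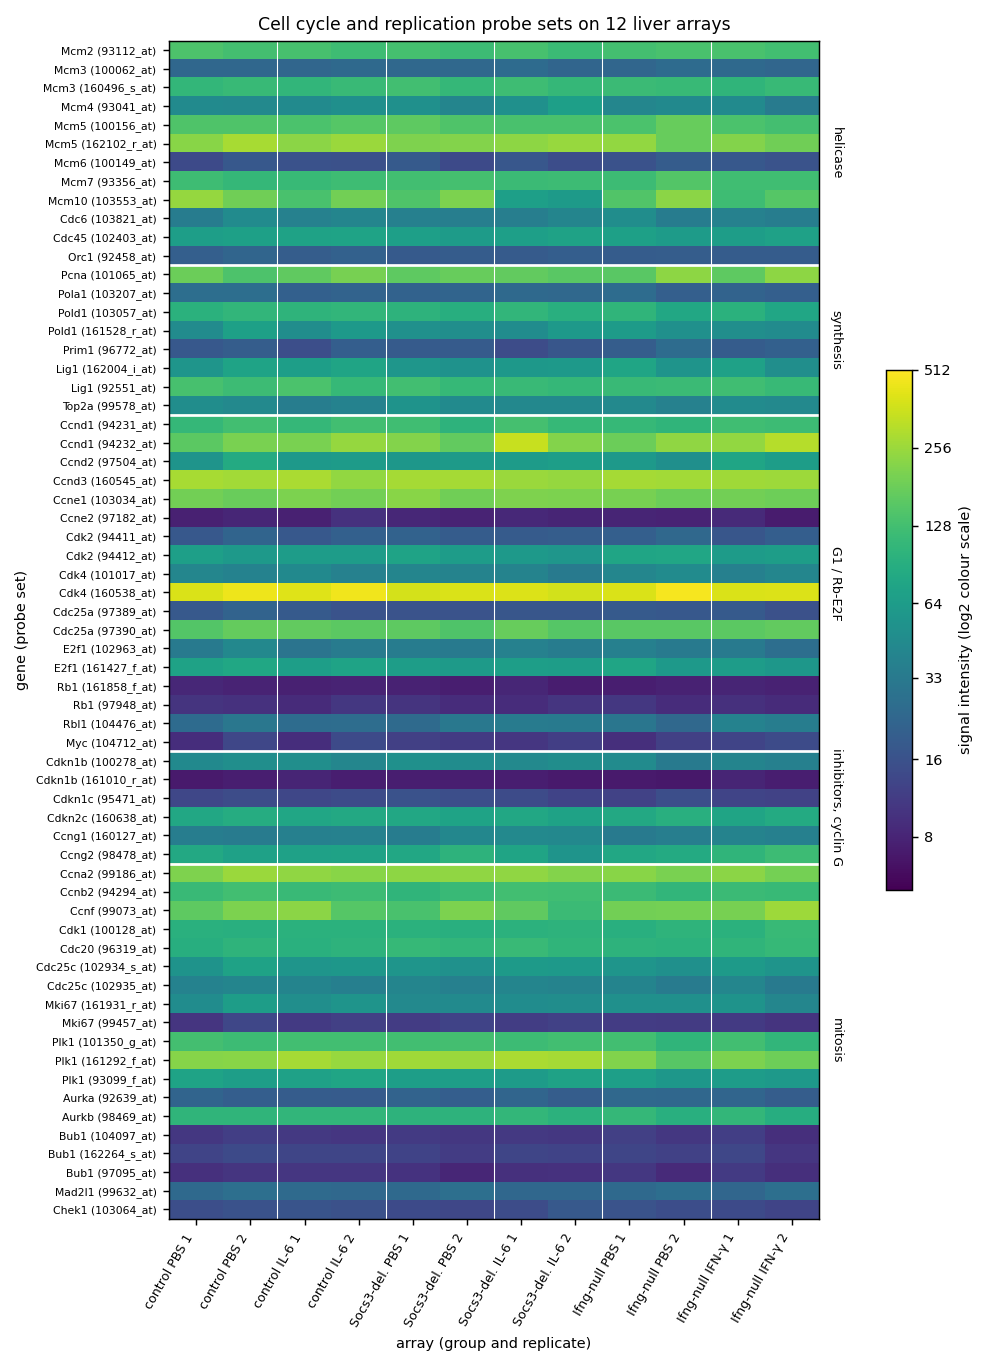
Signal intensity (colour, log2 scale, floor marked at 33) of all 63 member probe sets in rows, ordered by role, on the 12 arrays in columns, ordered by group. Rows differ far more than columns: apart from Mcm10, darker on both arrays of Socs3-deleted mice after IL-6, few rows change colour along the groups.

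To see what intensity probe sets of genes typical of other tissues reach in liver, 36 such measured genes were read in the same way. They included lens crystallins, sperm transition proteins, pituitary hormones and muscle regulators. Whether minor liver cells express single ones of them was not tested. Intensities of different probe sets are no amounts of RNA relative to each other, and this set served only as a range for background. Its 48 probe sets had means over the 12 arrays of 5.80 to 274, with a median of 40.2 and a 95th percentile of 207, and 24 of the 48 were above the floor on all arrays. The members had a median of 57.9. Only 1 member, Cdk4 (160538_at) with a mean of 412, lay above the highest reference mean, and 6 of 63 lay above its 95th percentile. A value above the floor therefore did not by itself show that a member was expressed.

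**Figure D2:**
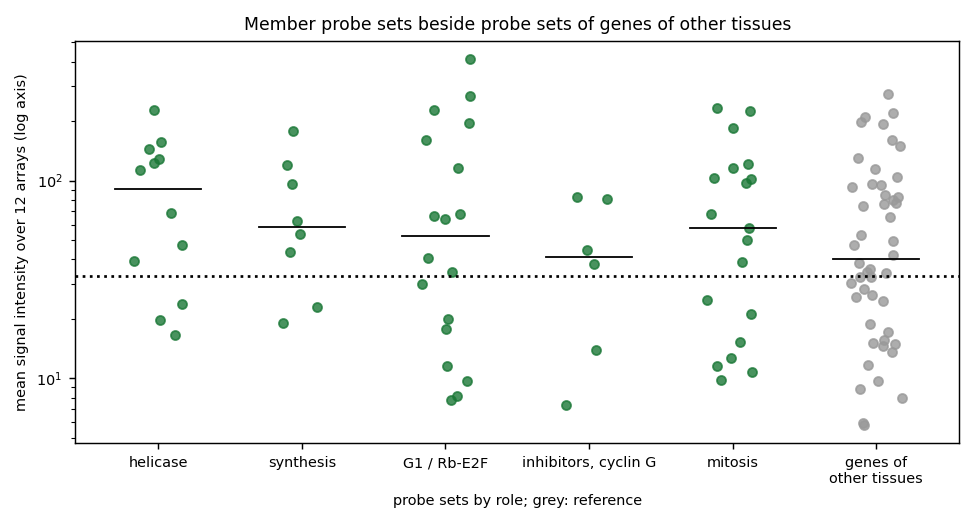
Mean signal intensity over 12 arrays (log axis) of each member probe set (green), by role, beside 48 probe sets of genes of other tissues (grey). Bars are medians and the dotted line is the floor of 33.01; the member probe sets overlap the reference range almost throughout, with Cdk4 at 412 above it.

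The members also varied little from array to array. Among probe sets above the floor on all arrays, the SD of the log2 values over the 12 arrays had a median of 0.12 for the 40 members, 0.12 for the 24 reference probe sets and 0.15 for all 8827 probe sets. Only 4 members exceeded the highest SD of a reference probe set, 0.27: Mcm10 (0.62), Ccnd1 94232_at (0.33), Ccnf (0.33) and Ccng2 (0.30). As a description over the 12 arrays, the median correlation of a probe set with the reference genes' mean profile was 0.41 for the members, 0.66 for the other reference probe sets and 0.11 for all probe sets above the floor throughout. The reference profile was lowest on the second arrays of both Ifng-null groups (-0.12 for both) and of Socs3-deleted mice given PBS (-0.10), and the members' median deviation was below 0 on these 3 arrays as well (-0.06, -0.04 and -0.04). The part of these array-wide shifts in single members was not tested.

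In control mice, no cell cycle or replication gene passed the test after IL-6. Of 43 member probe sets that could be tested, 0 passed an adjusted p of 0.05 (limma, Benjamini-Hochberg over 9641 probe sets), and the background is the same, since 0% of all probe sets passed in this comparison; the smallest adjusted p of any probe set was 0.170. At an unadjusted limma p of 0.05, 1 member (Top2a) passed, 2.33% of the members, against 248 probe sets (2.57%) over the array. The count of 0 therefore says little on its own, and the intervals bound the change of the floored signal. Here and in the comparisons below, they do not bound the change of a gene's RNA where its probe set lay near background. Rbl1 was under the floor on every control array, which set its change to 0.00. The median member change was 0.01 on the log2 scale and its median size 0.05, against 0.08 over all tested probe sets. The 95% confidence interval stayed below a 2-fold rise for 43 of 43 members (96.9% of all probe sets) and within a 1.5-fold change either way for 38 (80.6% of all).

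In Socs3-deleted mice, 1 member passed the test after the same injection, Mcm10, which read lower. It was 1 of 43 members against 1.17% of all probe sets called, 0 of 43 higher against 1.03%, and 1 of 43 lower against 0.145%. Unadjusted, 3 members passed (Mcm10, Cdk2 and Ccng2), 6.98% of the members, against 1044 probe sets (10.8%) over the array. The median member change was 0.04 and its median size 0.09, against 0.11 over all probe sets. The interval stayed below a 2-fold rise for 42 of 43 members, the exception being Ccnd1 94232_at, and within a 1.5-fold change for 37 (70.9% of all).

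Averaging the IL-6 response over both genotypes, which uses the same arrays again, gave 0 members called against 1.06% of all probe sets (0.913% higher). At an unadjusted limma p of 0.05, 4 members passed (Mcm10, Ccnd1, Ccng2 and Top2a), 9.30% of the members, against 886 probe sets (9.19%) over the array. The difference between the responses of the genotypes gave 0 against 0.0415%. Unadjusted, 1 member passed (Mcm10), 2.33% of the members, against 380 probe sets (3.94%).

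Without both PBS arrays of high pancreatic signal, 1 PBS array was left in each genotype and 0 members were called in either (limma). The median member change was then 0.02 in control mice and 0.00 in Socs3-deleted mice. The interval stayed below a 2-fold rise for 42 of 43 members in both, and within a 1.5-fold change for 30 of 43 in both, against 62.4% and 56.6% of all probe sets. Of the members named below, Top2a changed by -0.38 and -0.31 in control and Socs3-deleted mice and the brighter Ccnd1 probe set (94232_at) by 0.47 and 0.34. In Socs3-deleted mice Cdk2 changed by -0.34, Ccng2 by -0.33, Ccng1 by 0.33 and Mcm4 by 0.21, and Plk1 161292_f_at by 0.26 in control and 0.07 in Socs3-deleted mice. None of these passed, with limma's adjusted p at 0.501 or above. Mcm10 changed by -0.62 in control and -1.13 in Socs3-deleted mice, against -0.42 and -1.39 with all arrays, so its changes in the genotypes lay closer together. With 1 PBS array a genotype, separation of the groups was not counted.

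**Figure D3:**
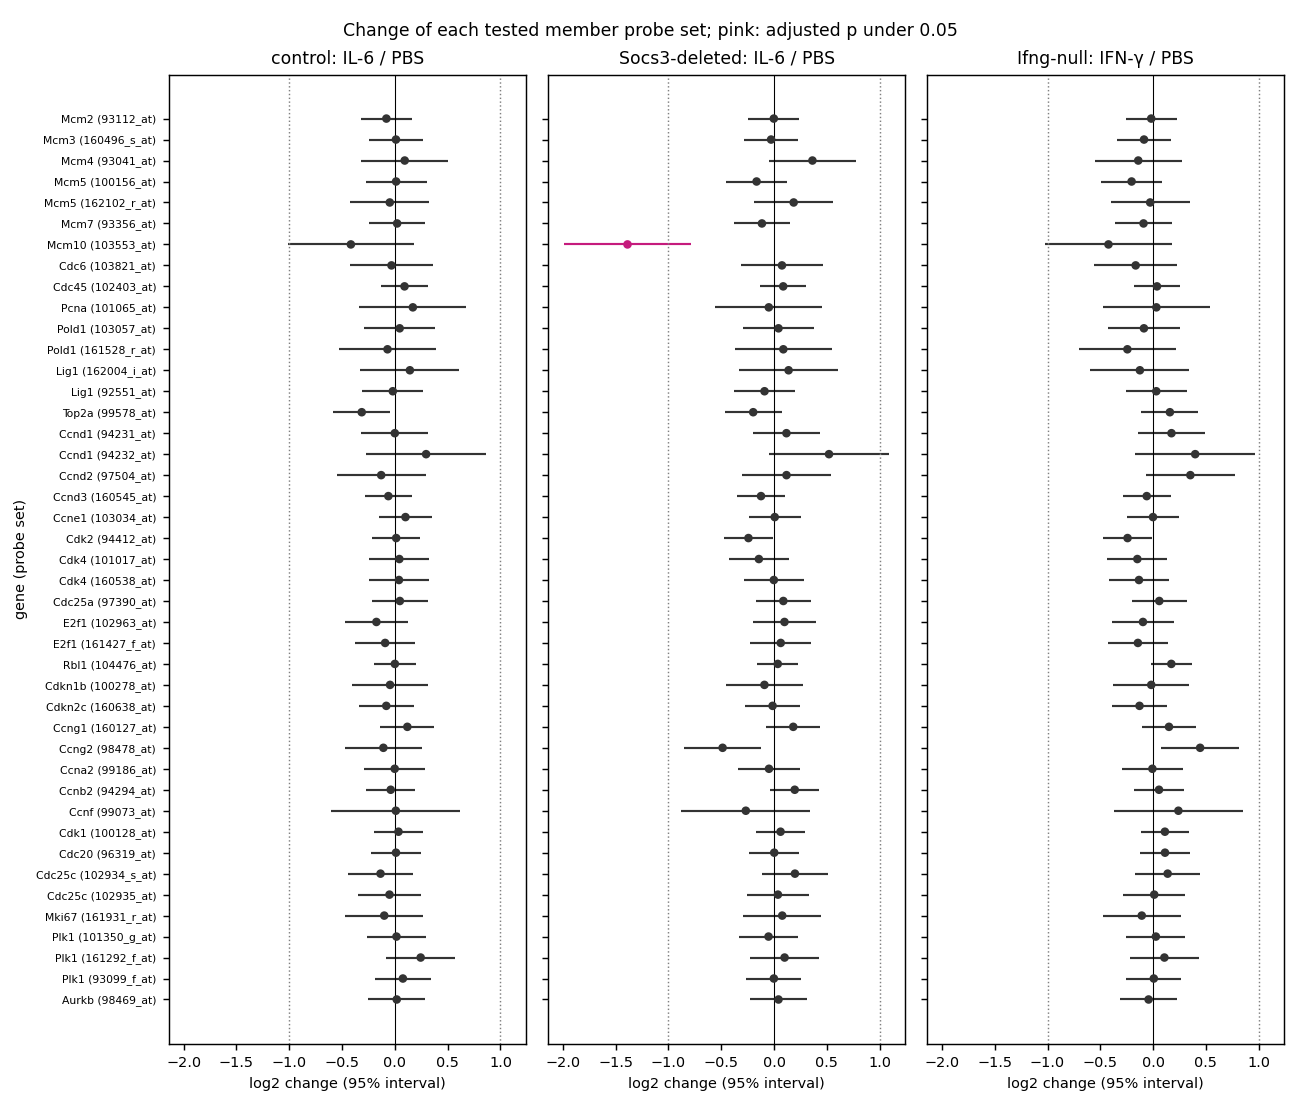
Log2 change of each of the 43 tested member probe sets with its 95% confidence interval, for IL-6 in control mice, IL-6 in Socs3-deleted mice and IFN-γ in Ifng-null mice; dotted lines mark 2-fold. Only Mcm10 in Socs3-deleted mice, in pink at -1.39, passed the adjusted threshold of 0.05.

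Among the genes of the replicative helicase and its loading, Mcm10, which helps to activate the CMG helicase at origins, was the only member called. Its single probe set (103553_at) read 248 and 187 in control mice given PBS and 136 and 191 in those given IL-6. Socs3-deleted mice read 143 and 204 after PBS and 68.8 and 61.9 after IL-6, and Ifng-null mice 145 and 228 after PBS and 123 and 150.0 after IFN-γ. Both Socs3-deleted arrays after IL-6 lay below all other 10 arrays, while the control arrays after PBS and IL-6 overlapped. The change was -1.39 ± 0.27 (SE) on the log2 scale in Socs3-deleted mice, with limma's adjusted p of 0.0431, a fold of 0.382 with a 95% interval from 0.252 to 0.579. In control mice it was -0.42 ± 0.27, with an adjusted p of 1, and the difference between the genotypes was -0.97 ± 0.38, with an unadjusted limma p of 0.0289 and an adjusted p of 0.999, so a response particular to Socs3-deleted mice was not shown. After IL-6, Mcm10 was lower in Socs3-deleted than in control mice by a log2 difference of -1.31 ± 0.27, which missed the threshold (limma, adjusted p = 0.0643).

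The Mcm10 call was near the edge. It held in 13 of 24 alternative settings, with changes from -1.65 to -1.03 and adjusted p-values from 0.0261 to 0.332. Without the second PBS array of Socs3-deleted mice, the one with the high pancreatic sum, the change was -1.13 and limma's adjusted p 0.287. Without any 1 of the other 3 arrays of these 2 groups it was -1.65, -1.46 and -1.31, with limma's adjusted p at 0.0667, 0.114 and 0.186. It was also lost, at an unchanged -1.39, without either control PBS array (limma, adjusted p = 0.0651 and 0.0573) or either Ifng-null IFN-γ array (0.0576 and 0.0556), which enter only the shared estimate of the spread. Without Hba-a1, the blood precursor sum of Socs3-deleted mice was 2690 and 2363 on the PBS arrays and 2322 and 2389 on the IL-6 arrays, and 0 of the 11 tested probe sets of the whole list passed; Hba-a1 itself read 1688 and 4864, then 294 and 3584. Of 9 hepatocyte marker probe sets, 8 were lower after IL-6 in these mice, with a median of -0.32; their part in the Mcm10 change was not tested.

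The other 8 tested probe sets of this group gave no call. Those of the MCM2-7 ring (Mcm2, Mcm3, Mcm4, Mcm5 and Mcm7), of the loading factor Cdc6 and of Cdc45 changed by -0.08 to 0.09 in control mice. In Socs3-deleted mice they changed by -0.17 to 0.36, with Mcm4 at the top (0.36 ± 0.18, limma adjusted p = 0.566). The brighter Mcm5 probe set (162102_r_at) read 225 and 279.6 in control mice given PBS and 228 and 257 after IL-6. It read 209 and 218, then 234 and 252, in Socs3-deleted mice, and 239.8 and 176, then 217 and 187, in Ifng-null mice given PBS and IFN-γ. The Socs3-deleted groups did not overlap for this probe set, but the second Mcm5 probe set (100156_at) moved the other way, by -0.17 against 0.19, and neither passed.

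Of the DNA synthesis genes, 0 of 6 tested probe sets were called. Pcna, the sliding clamp of the replicative polymerases, read 182 and 139.8 in control mice given PBS, 164 and 196 after IL-6, 162 and 176 in Socs3-deleted mice given PBS and 169 and 157 after IL-6. The Ifng-null arrays read 156 and 231 after PBS and 163 and 231 after IFN-γ, so replicates of one group differed more than any pair of groups did. Top2a, the topoisomerase that untangles replicated chromosomes, read 48.2 and 44.1 in control mice given PBS against 35.3 and 38.9 after IL-6. The Socs3-deleted arrays read 53.8 and 45.7 against 43.2 and 43.2, and in Ifng-null mice 43.9 and 38.0 after PBS against 47.0 and 44.2 after IFN-γ. Its arrays after IL-6 lay below those after PBS in both genotypes, close to the floor. The changes of -0.31 ± 0.12 and -0.20 ± 0.12 did not pass (limma, adjusted p = 1 and 0.677), and their average of -0.26 ± 0.09 did not either (adjusted p = 0.295). Without single PBS arrays of Socs3-deleted mice the change there was -0.31 (second left out) or -0.08 (first left out). Pold1 and Lig1, a polymerase subunit and the ligase of lagging-strand synthesis, changed by no more than 0.14 in size in either IL-6 comparison.

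Of the G1 genes, 12 probe sets were tested and 0 called. Cyclin D1 (Ccnd1), the step through which mitogens act on hepatocytes, had 2 probe sets. One of them (94232_at) read 161 and 204 in control mice given PBS and 200.1 and 246 after IL-6, 219 and 169 in Socs3-deleted mice given PBS and 349 and 218 after IL-6. Ifng-null mice read 181 and 236 after PBS and 240.3 and 308 after IFN-γ. The mean was higher after cytokine in each of the 3 pairs of groups, but the groups overlapped in control and Socs3-deleted mice, where the highest reading, 349, came from 1 array. The changes were 0.30 ± 0.25, 0.52 ± 0.25 and 0.40 ± 0.25 (limma, adjusted p = 1, 0.539 and 0.933), and the upper bound of the 95% interval in Socs3-deleted mice was a 2.13-fold rise. Leaving out single arrays moved the change in Socs3-deleted mice between 0.18 and 0.86. The second Ccnd1 probe set (94231_at) read between 100.1 and 131.5 on all 12 arrays, and its changes were 0.00, 0.12 and 0.17.

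Cyclins D3 and E1 and the kinase Cdk4 gave no call, with narrow intervals. Ccnd3 read 277 and 272, then 285 and 242, in control mice, 277 and 274, then 258 and 248, in Socs3-deleted mice, and 273 and 271, then 264 and 258, in Ifng-null mice, each time PBS first. Ccne1, the cyclin of S phase entry, read 192 and 179, then 205 and 193, in control mice, 225 and 188, then 209 and 204, in Socs3-deleted mice, and 197 and 182, then 193 and 186, in Ifng-null mice. Cdk4, the partner of the D cyclins, read with its brighter probe set (160538_at) 397 and 453, then 406 and 466, in control mice, 382 and 395, then 402 and 374, in Socs3-deleted mice, and 393 and 483, then 396 and 399, in Ifng-null mice. For these 3 probe sets the 95% interval of the IL-6 change reached at most a 1.27-fold rise in either genotype. Cdc25a, the phosphatase that activates Cdk2, read with the probe set above the floor (97390_at) 148 and 170.0, then 167 and 161, in control mice, 163 and 142, then 174 and 151, in Socs3-deleted mice, and 158 and 157, then 160.0 and 168, in Ifng-null mice. Cdk2 (94412_at), at 73.4 and 64.3 in Socs3-deleted mice given PBS and 59.8 and 56.5 after IL-6, changed by -0.24 ± 0.10 there (limma, adjusted p = 0.420; -0.15 without the first of these PBS arrays) and by 0.01 in control mice. E2f1, the activating E2F, changed by -0.17 and -0.09 in control mice and by 0.10 and 0.06 in Socs3-deleted mice (102963_at and 161427_f_at). Rbl1, the pocket protein p107, was above the floor on only 4 of 12 arrays. Its arrays separated upwards in Socs3-deleted mice (24.6 and 31.9, then 34.2 and 33.4) and Ifng-null mice (30.7 and 24.0, then 38.7 and 35.7). With the floor, these changes were 0.04 and 0.17.

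Among the CDK inhibitors and the G cyclins, 0 of 4 tested probe sets were called. Cyclin G2 (Ccng2), known as a gene of arrested cells, read 82.3 and 70.9 in control mice given PBS and 70.3 and 71.3 after IL-6. It read 80.4 and 99.7 in Socs3-deleted mice given PBS, 74.2 and 55.0 after IL-6, 79.6 and 84.3 in Ifng-null mice given PBS and 104 and 119 after IFN-γ. The Socs3-deleted groups separated downwards and the Ifng-null groups upwards, without passing: -0.49 ± 0.16 (limma, adjusted p = 0.277) and 0.44 ± 0.16 (adjusted p = 0.558). The Socs3-deleted change was -0.27 without the second IL-6 array of these mice and -0.70 without the first. Cyclin G1 (Ccng1), a target of p53, read 35.5 and 34.5, then 37.9 and 38.1, in control mice, 34.8 and 42.9, then 44.5 and 43.2, in Socs3-deleted mice, and 32.9 and 36.2, then 39.4 and 37.4, in Ifng-null mice. All 3 cytokine groups lay above their PBS groups, just over the floor, by 0.12, 0.18 and 0.15 with an SE of 0.11 each (limma, adjusted p = 1, 0.689 and 1). The Socs3-deleted change was 0.03 without the first PBS array of these mice and 0.33 without the second. The inhibitors Cdkn1b (p27, 100278_at) and Cdkn2c (p18) gave no call either.

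The mitotic genes gave 0 calls among 12 tested probe sets. Cyclin A2 (Ccna2), which acts in S phase and G2, read 209 and 256, then 236 and 226, in control mice, 234 and 237, then 238 and 218, in Socs3-deleted mice, and 225 and 201, then 229.9 and 195, in Ifng-null mice. Cdk1, the kinase that starts mitosis, read 94.95 and 93.0, then 95.9 and 96.5, in control mice, 96.9 and 92.5, then 98.7 and 98.9, in Socs3-deleted mice, and 92.8 and 101, then 97.0 and 113, in Ifng-null mice. The IL-6 arrays of Cdk1 lay above the PBS arrays in both genotypes, yet the changes were 0.03 ± 0.10 and 0.06 ± 0.10. Plk1, a kinase of spindle assembly, behaved likewise with 1 of 3 probe sets (161292_f_at): 219 and 225, then 274 and 252, in control mice, 266 and 256, then 285 and 274, in Socs3-deleted mice, and 212 and 153, then 204 and 184, in Ifng-null mice. Its changes of 0.24 ± 0.14 and 0.10 ± 0.14 did not pass, its suffix marks a probe set that may match related sequences, and the other Plk1 probe sets changed by -0.05 to 0.08. Cyclin F (Ccnf) varied within groups: 164 and 207, then 229 and 149.9, in control mice, 136 and 205, then 166 and 116, in Socs3-deleted mice, and 191 and 193, then 198 and 259, in Ifng-null mice. Ccnb2, Cdc20, Cdc25c, Aurkb and the Mki67 probe set above the floor changed by -0.14 to 0.02 in control mice and by 0.00 to 0.20 in Socs3-deleted mice.

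**Figure D4:**
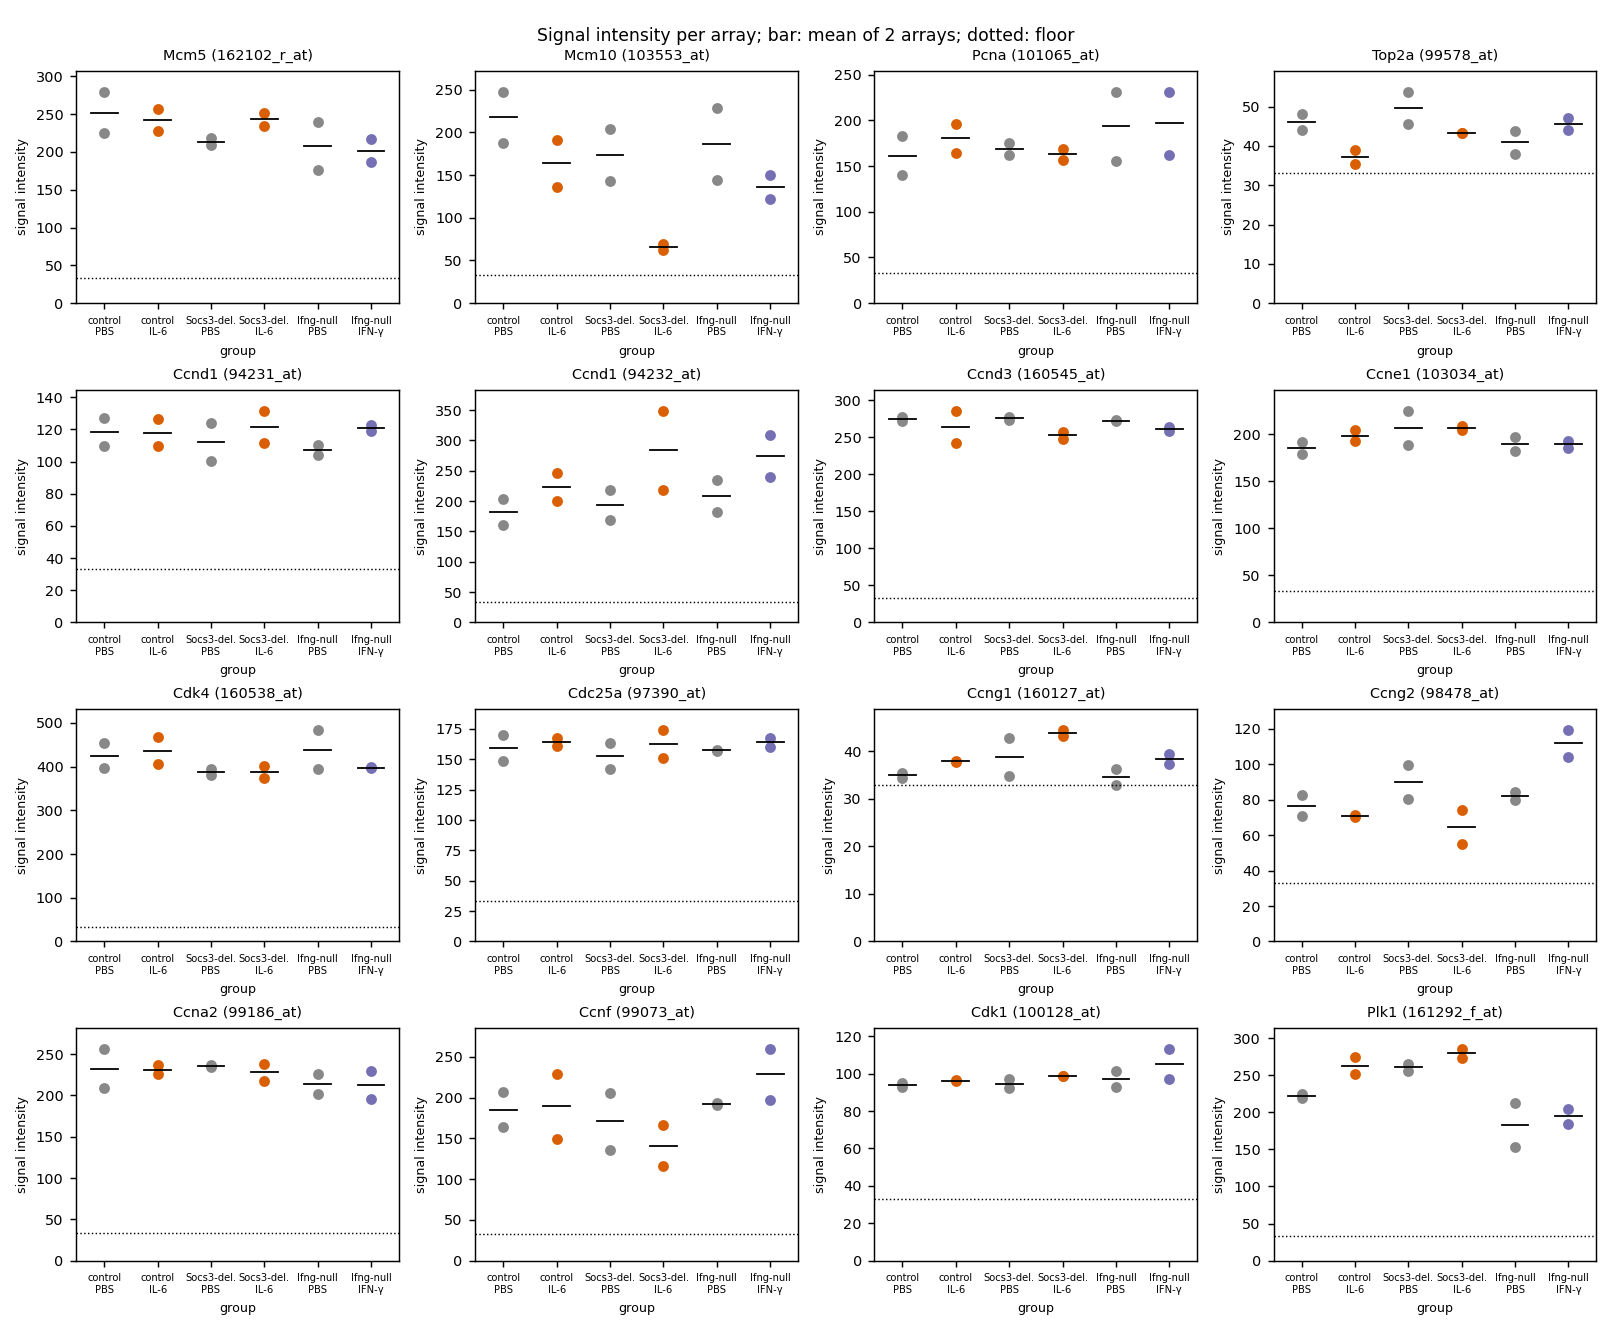
Signal intensity per array (points; grey PBS, orange IL-6, purple IFN-γ) with the mean of 2 arrays (bar) for 16 member probe sets; the dotted line is the floor of 33.01 and each axis starts at 0. Mcm10 in Socs3-deleted mice after IL-6 lies apart at 68.8 and 61.9, and the 2 Ccnd1 probe sets differ in how far their arrays spread.

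Separation of 2 arrays from 2 arrays was common over the whole array, so these patterns were read against it. In control mice, 6 of 43 members lay wholly higher after IL-6, against 13.0% of all tested probe sets, and 1 wholly lower, against 14.6%. In Socs3-deleted mice 11 lay higher, against 19.6%, and 8 lower, against 21.5%. In both genotypes together, 3 members lay higher (Cdk1, Plk1 161292_f_at and Ccng1), against 4.53%, and 1 lower (Top2a), against 3.80%.

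IFN-γ in Ifng-null mice also left these genes without a call: 0 of 43 members, against 0.653% of all probe sets (0.612% higher). At an unadjusted limma p of 0.05, 2 members passed (Cdk2 and Ccng2), 4.65% of the members, against 668 probe sets (6.93%). The median member change was -0.01 and its median size 0.11, against 0.10 over all probe sets. The groups did not overlap for 10 members higher after IFN-γ, against 9.80% of all, and for 6 lower, against 17.4%. Mcm10 changed by -0.42 ± 0.27 (adjusted p = 0.930).

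Genotype without cytokine gave no call. Between Socs3-deleted and control mice given PBS, 0 members passed, against 0% of all probe sets. At an unadjusted limma p of 0.05 it was 0 members against 402 probe sets (4.17%). Between Ifng-null and control mice given PBS, 0 members passed against 0%. Unadjusted, 1 member passed (Cdk2, 0.24 ± 0.10, limma adjusted p = 0.873), 2.33% of the members, against 297 probe sets (3.08%). After IL-6, Socs3-deleted against control mice gave 0 members against 0.954% (0.861% higher and 0.0934% lower). Mcm10 was the 1 member at an unadjusted limma p of 0.05, 2.33% of the members, against 876 probe sets (9.09%).

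Other genes of the same processes gave no call either. Of 31 tested probe sets of further S phase genes (such as clamp loader, origin, chromatin assembly and nucleotide genes; no GINS gene was among them), 0 were called in any of the 8 comparisons, with median IL-6 changes of 0.00 in control and -0.01 in Socs3-deleted mice, against -0.01 and 0.00 over all probe sets. The largest in size in Socs3-deleted mice were Orc5, an origin recognition subunit (-0.43 ± 0.13; limma, adjusted p = 0.199), and Rfc1, the large clamp loader subunit (-0.41 ± 0.16; 0.357). Of 29 further mitotic probe sets, 0 were called, with medians of -0.01 and -0.01. Cks2, a small CDK-binding protein, read 150 and 122, then 115 and 166, in control mice, 151 and 162, then 54.1 and 41.6, in Socs3-deleted mice, and 131 and 346, then 103 and 217, in Ifng-null mice. Its lowest arrays were the same 2 as for Mcm10, and the change of -1.72 ± 0.45 did not pass (limma, adjusted p = 0.140). Kif22, a chromosome-arm kinesin, changed there by 0.66 ± 0.22 without passing (limma, adjusted p = 0.265), with 141 on 1 array and 79.9 on the other. Of 23 further G1 probe sets, 0 were called, with medians of 0.03 and -0.04; the anti-proliferative genes Tob1 (-0.85 ± 0.52, with 756 and 181 on its IL-6 arrays) and Btg2 (0.51 ± 0.24) were the largest in size in Socs3-deleted mice, without passing (limma, adjusted p = 0.679 and 0.512).

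The early genes that precede the cell cycle in the regenerating liver were counted beside the members. Of 23 tested probe sets of priming genes (immediate-early factors, Stat3, Socs3 and C/EBP genes), 12 were positive in control mice with a median of 0.01, and 21 in Socs3-deleted mice with a median of 0.42; in Ifng-null mice after IFN-γ 20 were positive with a median of 0.33. The members had 22 of 43, 24 of 43 and 20 of 43 positive. Without both PBS arrays of high pancreatic signal the priming medians were -0.07 in control and 0.37 in Socs3-deleted mice. No priming probe set was called in these 3 comparisons. Cebpd, an acute phase transcription factor, was called once: after IL-6 it read 178 and 141 in control and 672 and 881 in Socs3-deleted mice, a log2 difference of 2.28 ± 0.32 (limma, adjusted p = 0.0194). This call was lost without the second IL-6 array of either genotype, at limma's adjusted p of 0.173 (control) and 0.0885 (Socs3-deleted), and with no filter on low values (0.151). Of 17 probe sets of liver mitogens and their receptors, 1 was called in the IL-6 response averaged over genotypes. It belongs to Tnfrsf1a, the TNF receptor of the priming step. The other tested Tnfrsf1a probe set changed by 0.04 in control and 0.18 in Socs3-deleted mice, without a call. The called probe set changed by 0.79 ± 0.14 on average (limma, adjusted p = 0.0362). That call held in 12 of 24 settings; it was lost without either IFN-γ array and without any array of the 4 groups compared other than the first control PBS array, at adjusted p-values of up to 0.182.

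Acute phase genes, which IL-6 is known to induce in hepatocytes, were read as a check that it had reached the liver. Of 24 acute phase probe sets, 24 were positive in control mice after IL-6 with a median of 0.90, although 0 were called. Lcn2 read 53.5 and 31.6 after PBS and 1454 and 514 after IL-6 in control mice, a change of 4.36 ± 0.67 whose limma adjusted p was 0.418, so a change of this size was not called with 2 arrays a group. Acute phase probe sets already had higher means in Socs3-deleted than in control mice given PBS, with 23 of 24 positive, a median of 1.04 and 0 called. Lcn2 read 1006 and 1907 there after PBS alone, a log2 difference of 5.04 ± 0.67 (limma, adjusted p = 0.104). From that higher PBS level, 19 were positive after IL-6 in Socs3-deleted mice, with a median of 0.13, and A2m, at 86.8 and 96.8 after PBS and 1452 and 1421 after IL-6, was called (3.97 ± 0.78; limma, adjusted p = 0.0496); without any 1 array other than the control IL-6 arrays this call was lost, at adjusted p-values of up to 0.233. In the IL-6 response averaged over genotypes, 2 acute phase probe sets were called, Saa3 (2.93) and Lcn2 (2.66). These calls held in 14 of 24 and 14 of 23 alternative settings. Without both PBS arrays of high pancreatic signal the acute phase medians were 0.70 in control and 0.27 in Socs3-deleted mice.

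**Figure D5:**
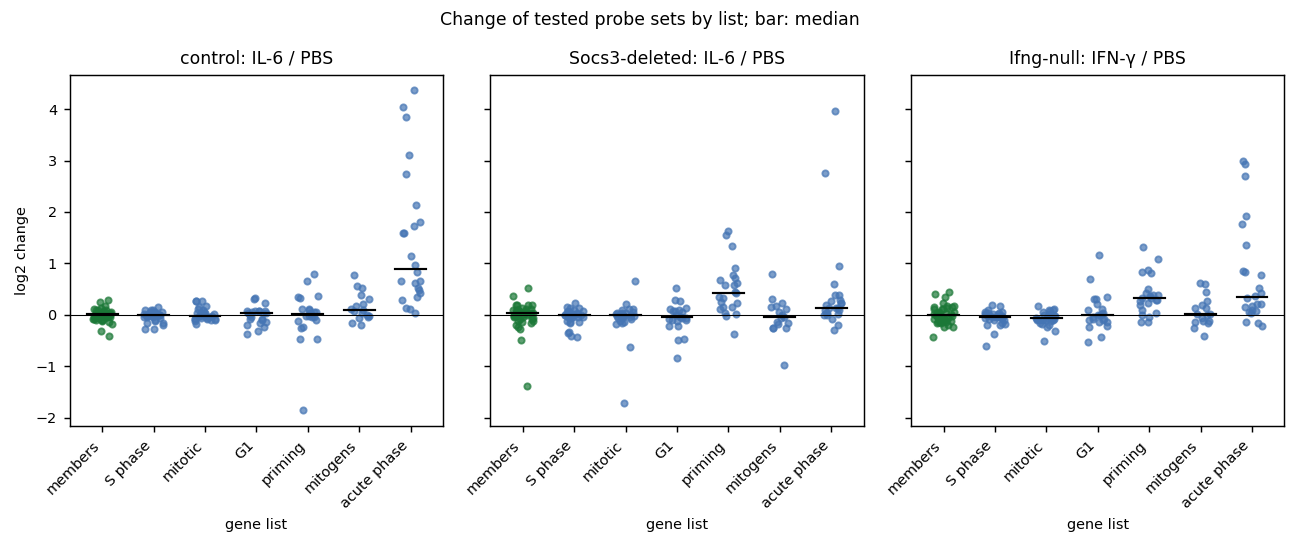
Log2 change of every tested probe set (points) of the members and of 6 further gene lists, with the list's median (bar), in the same 3 comparisons. The members and the S phase, mitotic and G1 lists sit around 0 in all 3 panels, while acute phase genes in control mice have a median of 0.90 and priming genes in Socs3-deleted mice 0.42.

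Markers of other liver cells that could divide or arrive were read beside these results. In Socs3-deleted mice after IL-6, 1 of 9 macrophage probe sets (Cd14, 1.34), 1 of 9 endothelial ones (Tie1, 1.27) and 1 of 9 hepatocyte ones (Hpd, -0.57) were called (limma). The Cd14 call held in 24 of 24 settings, the Tie1 call in 21 of 23 and the Hpd call in 5 of 24, with none of those that leave out 1 array. Over whole lists, 4 of 9 macrophage probe sets were positive with a median of -0.04, 6 of 9 endothelial ones with a median of 0.03, and 1 of 9 hepatocyte ones with a median of -0.32. The summed macrophage intensity was 1848 and 2106 after PBS and 2570 and 2355 after IL-6, while 5 of the 8 tested probe sets other than Cd14 were lower. For markers of T and NK cells, B cells, neutrophils, stellate cells and bile duct cells 0 probe sets were called in this comparison. The part of other cells in the members' values was not tested.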

How the data were processed

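The values are signal intensities, linear in scale, 1 for each probe set of each array, used as deposited; the software and scaling behind the authors' intensities were not given in the sources used here. Control probe sets (66) were left out, values under 33.01 (the 25th percentile) were raised to that floor, log2 was taken, and the 9641 probe sets above the floor on at least 2 arrays were tested. Genes were named from the platform table only where it gives 1 symbol (10855 probe sets). Changes near the floor are understated.

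With limma 3.58.1 in R 4.3.3, 6 group means were fitted to all 12 arrays (lmFit, contrasts.fit, eBayes without trend), with residual degrees of freedom of 6 and prior ones of 3.38. Every test was two-sided and Benjamini-Hochberg adjusted over the 9641 probe sets of each of 8 comparisons, at 0.05; SEs and 95% intervals are the fit's, and a change is on the log2 scale. Comparisons that share arrays are not independent. An exact permutation test of 2 against 2 arrays cannot go below p = 0.333. The code was tested on simulated data.

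The members and lists were chosen with earlier results of these data known. Values are given array by array for members that were called, whose arrays separated after IL-6 in both genotypes, among the 10 brightest, or changed most in their role group; from other lists, called members or the 2 largest changes in Socs3-deleted mice. Alternatives were other normalizations (quantile, median centring), floors at the 10th or 50th percentile, no filter or a strict one, a trend with intensity, weights per array, a replicate block, only the arrays compared, and leaving out each array. Chosen after seeing the data were no floor and leaving out both arrays with high pancreatic signal.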

Additional observations from a re-analysis of the deposited data

How the results depend on the processing

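Across 24 alternative settings, 5 of the 8 comparisons gave 0 member calls in every setting: IL-6 in control mice, the difference between genotypes, IFN-γ, and both genotype comparisons after PBS. In Socs3-deleted mice after IL-6 the count was 1 (Mcm10) in 13 settings and 0 in 11: with a floor at the array's median (the 50th percentile), when no filter was set, without both arrays with high pancreatic signal, and in 8 of the 12 settings that leave out 1 array (range 0 to 1). Averaged over genotypes the count went from 0 to 1 (Mcm10) with a filter that asks for all 12 arrays above the floor, with array weights and without the first Ifng-null PBS array (range over left-out arrays 0 to 1). After IL-6, Socs3-deleted against control mice went from 0 to 1 (Mcm10) with the same filter, with array weights and with no floor. With no filter more probe sets were tested; the cause of the other changes was not tested. A floor at the 50th percentile left 21 member probe sets above it on all arrays in place of 40. A group left with a single array borrows the spread of the others.

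The labels give replicate numbers but do not say that they pair samples. The correlation of same-numbered arrays' deviations was 0.14 for control, 0.12 for Socs3-deleted and 0.66 for Ifng-null mice between their 2 injections, 0.31 between control and Socs3-deleted mice after PBS, 0.09 between them after IL-6, and -0.11 between control and Ifng-null mice after PBS. With the replicate number as a block, every count of member calls was as without it, 1 for IL-6 in Socs3-deleted mice and 0 elsewhere, and Mcm10 had a limma adjusted p of 0.0403.

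Signal over background limits these results: 20 of 63 member probe sets never left the floor, and most others overlap probe sets of genes typical of other tissues. A change in dividing cells that are few in whole liver was not detectable where the probe set lay at background.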
